A study of Homo sapiens with 17 samples.

Results

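The regions described here are the H3K36me3 peaks that the deposited wild-type (WT) list held and the deposited knockout (KO) list did not. A peak was a member when it lay on chromosomes 1 to 22 or X and overlapped no KO-list H3K36me3 peak by 1 bp or more. The rule found 26171 such peaks among the 30144 peaks of the WT list (86.8%), and among 39081 peaks in both lists together. The other 3973 WT peaks (13.2%) overlapped a KO-list peak and are called shared. The KO list held 8937 peaks, of which 4260 (47.7%) overlapped a WT peak. Because the members were chosen by the peak calls of these 2 lists, their number, lengths and enrichments are a description without a test. RNA levels and H3K27me3 peaks were not used by the rule.

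The cells were neurons grown for 40 days from H9, an established human embryonic stem cell line at passage P40. WT cultures were compared with UTX-/- cultures of the lines KO1 and KO2. The differentiation passed through embryoid bodies, hand-picked neural rosettes and neurospheres, with no sorting step in the protocol, so each library is a bulk culture. RNA was sequenced from 3 WT, 3 KO1 and 2 KO2 libraries. The ChIP-seq, which the design text gives as 1 biological replicate, has 1 deposited peak list per genotype and mark. The labels of both KO1 and KO2 name the single KO list, so whether it holds KO1, KO2 or both pooled is unknown here. The control samples carry input in their titles but normal rabbit IgG as their antibody.

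Trimethylation of lysine 36 on histone H3 is laid down by SETD2, which travels with elongating RNA polymerase II. The mark therefore marks the bodies of transcribed genes and rises towards their 3′ ends. It is read by proteins of mRNA processing and DNA repair and by DNA methyltransferases, and it restrains PRC2, the Polycomb complex that writes H3K27me3. UTX, also named KDM6A, removes methyl groups from H3K27 and works with the KMT2C and KMT2D methyltransferases.

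A mark of transcribed bodies also covers the primary transcripts of microRNAs, and 56 of the 1558 hairpins in the RefSeq table (GRCh38.p14) lay wholly inside a member. The 3973 shared WT peaks, which cover 2815 kb against 11694 kb for the 26171 members, held 36. Per peak and per kb, shared peaks therefore held more. The mature strands of 5 hairpins inside members, with known roles in neural or growing cells, are shown with the seed (bases 2 to 8) in capitals. They lie at chr5:88666902-88666924 (minus strand), chr3:52268336-52268357 (minus), chr2:218402657-218402677 (plus), chr1:40754371-40754392 (plus) and chr13:91350618-91350640 (plus), in this order.
miR-9-5p: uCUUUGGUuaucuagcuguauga
let-7g-5p: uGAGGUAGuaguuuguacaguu
miR-26b-5p: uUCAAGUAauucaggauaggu
miR-30e-5p: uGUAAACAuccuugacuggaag
miR-17-5p: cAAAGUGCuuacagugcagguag
The 5 seeds differ from each other. The host genes were MIR9-2HG for miR-9, WDR82 for let-7g, CTDSP1 for miR-26b, NFYC for miR-30e and MIR17HG for miR-17. The peak over the miR-9-2 hairpin was 647 bp long with a fold enrichment of 4.57, and the nearest KO-list peak was 1260501 bp away. The peak over miR-17 was at the shortest length of the list, 269 bp.

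Members seldom lay at annotated starts. Of 34961 RefSeq promoter windows, each from 250 bases before a start to 50 after it, 152 (0.435%) were touched by a member, and 101 of these (66.4%) lay inside another protein-coding gene, against 24.7% of all windows. A member covered 31 windows whole. These windows were ranked by the WT RNA of their genes, and the ranking did not cover every chromosome. The 250 bases before the start are shown for the 3 genes ranked highest, with the dinucleotide CG in capitals. They are chr20:36859874-36860123 (minus strand), chr15:89378869-89379118 (plus) and chr13:99969173-99969422 (minus). Each lies inside the span of its own gene, downstream of the gene's outermost 5′ end.
MTCL2: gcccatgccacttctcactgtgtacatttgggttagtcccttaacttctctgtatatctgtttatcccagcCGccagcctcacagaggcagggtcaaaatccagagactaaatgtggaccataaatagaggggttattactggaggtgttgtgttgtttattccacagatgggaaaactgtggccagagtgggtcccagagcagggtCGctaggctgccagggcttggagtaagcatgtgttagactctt
MIR9-3HG: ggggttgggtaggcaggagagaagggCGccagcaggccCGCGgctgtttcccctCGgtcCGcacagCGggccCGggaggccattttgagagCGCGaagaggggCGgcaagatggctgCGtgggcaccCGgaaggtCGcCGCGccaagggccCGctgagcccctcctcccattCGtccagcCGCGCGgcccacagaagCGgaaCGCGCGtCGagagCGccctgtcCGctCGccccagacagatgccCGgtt
ZIC5: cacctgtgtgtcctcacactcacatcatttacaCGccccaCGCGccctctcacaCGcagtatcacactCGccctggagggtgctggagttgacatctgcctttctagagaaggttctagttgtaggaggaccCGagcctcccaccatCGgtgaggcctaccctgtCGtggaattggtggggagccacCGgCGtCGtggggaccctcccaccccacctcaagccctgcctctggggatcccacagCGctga
These sequences held 2, 29 and 12 CG dinucleotides, beside a median of 11 over all windows. MTCL2 encodes a microtubule-binding protein, MIR9-3HG hosts one of the miR-9 hairpins, and ZIC5 is a zinc-finger factor of the neural tube. The MIR9-3HG window lay under a 1909 bp member with a fold enrichment of 10.2.

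RNA libraries held between 17.4 and 31.5 M estimated counts (M, counts divided by 1000000). KDM6A RNA, the targeted gene, was at 36.03, 35.9 and 35.2 CPM (counts per 1000000, TMM-scaled) in the WT libraries, at 40.8, 30.1 and 34.1 in the KO1 ones and at 25.9 and 33.9 for KO2. The groups overlapped (edgeR FDR 0.672), and RNA summed over the whole gene does not show a small edit. KDM6A carried no H3K36me3 peak of either list. Among the cell type marker lists, the summed mesenchymal level was 93.4 to 1650 CPM for WT and 944 to 1170 for KO1 replicates 1 and 3. It was 24767 to 64065 CPM for KO1 replicate 2, KO2 replicate 1 and KO2 replicate 2, which are called high-collagen here. Neuronal structure genes summed to 5008 to 7554 CPM for WT, 5300 to 6310 for the first-named KO1 libraries and 1215 to 3819 for the high-collagen ones. In bulk RNA, fewer cells of a type and less RNA per cell cannot be told apart. The ChIP lists came from 22.5 M WT and 44.3 M KO H3K36me3 tags. Per the file headers, MACS2 extended tags to 269 bp for WT and to a preset 200 bp for KO, where its model gave 51, 211, 356 and 542 bp as alternatives. The H3K27me3 lists, in contrast, were near in size at 10340 WT and 10950 KO peaks. What part depth, tag extension or cell makeup had in the size of the H3K36me3 lists was not tested.

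The members covered 11694 kb, which was 80.6% of the bases of the WT list. They lay at widely varying distances from the KO-list peaks. The median distance to the nearest KO-list peak was 10000 bp, 14.4% lay within 1 kb and 82.0% within 100 kb. At the boundary of the rule, 37 members lay within 10 bp of a KO-list peak and 57 WT peaks overlapped one by 10 bp or less. Just inside it were a 749 bp peak in POLG (chr15:89328900-89329648), the mitochondrial DNA polymerase, and a 275 bp peak in ZNF721 and the pseudogene ABCA11P (chr4:469945-470219), each directly beside a KO-list peak. Just outside it were a 967 bp peak in FBXO28 (chr1:224131633-224132599) and a 582 bp peak in TLE3 (chr15:70051751-70052332), each with 1 bp of overlap.

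Members were short and of modest enrichment. Their median length was 368 bp (quartiles 298 and 508), beside 541 bp for shared WT peaks and 241 bp for peaks only in the KO list. The shortest peak was 269 bp in the WT list and 200 bp in the KO list, equal to their tag extensions. Lengths are therefore not on the same scale between the lists. The median fold enrichment over control, the authors' value for each peak, was 4.63 (quartiles 4.13 and 5.24), beside 5.09 in shared and 4.18 in KO-only peaks. Members of 1 kb or longer numbered 879 (3.36%), and shared WT peaks of that length 753 (18.95%). The median −log10 q was 5.40 in members and 6.48 in shared peaks, and the median pileup was 16 and 18 tags. Across members, longer peaks had higher fold enrichment (Spearman rank correlation 0.37, n = 26171 peaks of 1 library), and this relation was steeper in rank among shared peaks (0.52).

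**Figure D1:**
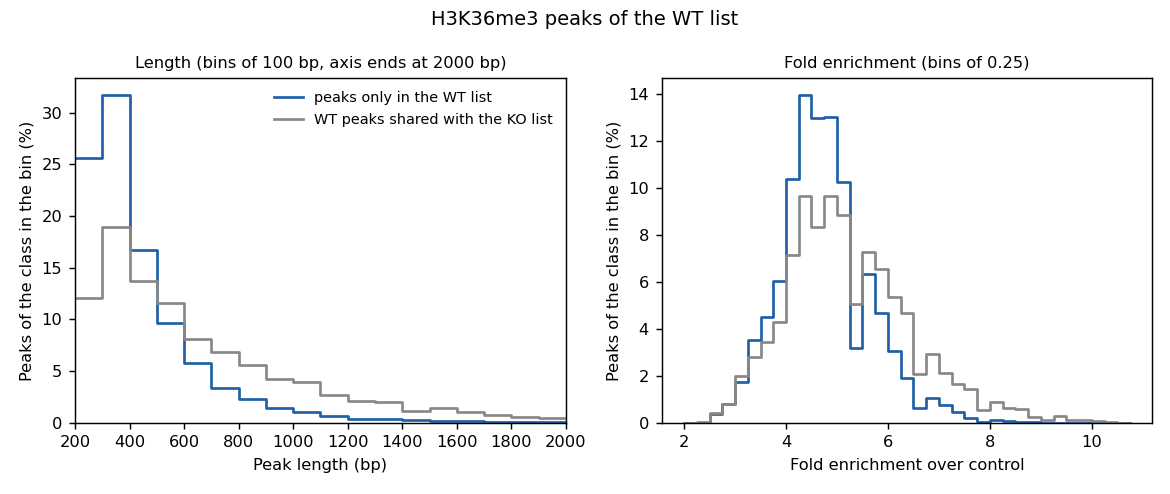
Percent of peaks in each class (vertical axes) by peak length in bp (left) and by fold enrichment over control (right), for members (blue) and shared WT peaks (grey) of the WT H3K36me3 list. Members peak at 300 to 400 bp and thin out sooner than shared peaks, whose median length is 541 bp.

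Members lay inside genes, more often in their 3′ portion. Of all members, 25165 (96.2%) overlapped a protein-coding gene, as did 97.5% of shared WT peaks. For the 20216 members whose summit lay in exactly 1 protein-coding gene of known strand, the median place was at 70.1% of the span from the 5′ end. With the span divided into 3 equal parts, the 5′ part held 15.1% of summits, the middle part 30.9% and the 3′ part 54.0%. Over 10 equal bins the share rose at each step, from 2.30% at the 5′ end to 19.6% at the 3′ end. Only 28 summits (0.139%) lay within 1 kb of the gene's start, while 985 (4.87%) lay within 1 kb of its end. Of shared peak summits 52.0%, and of KO-only ones 46.1%, lay in the 3′ part. That part held 51.9% of member summits in genes under 10 kb, 47.9% in genes of 10 to 50 kb and 60.1% in longer genes. Of the 634 members (2.42%) outside every gene, 493 lay past the 3′ end of the nearest gene, at a median of 659 bp, and 19 before a 5′ end. For the other 122 the strand of the nearest gene was not known.

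**Figure D2:**
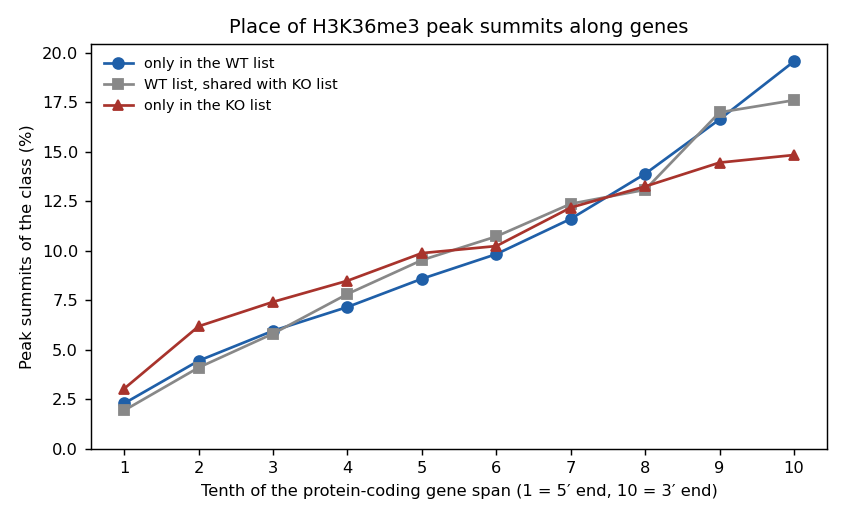
Percent of peak summits (vertical axis) in 10 equal bins of the protein-coding gene span from 5′ to 3′ (horizontal axis), for members (blue circles), shared WT peaks (grey squares) and KO-only peaks (red triangles). In all 3 classes the share climbs along the gene, and members start at 2.30% in the 5′ bin.

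Members spread over 6675 of 19970 protein-coding genes (33.4%). Most members, 16308 (62.3%), sat in a gene that also held a KO-list H3K36me3 peak elsewhere in its span, and 9229 (35.3%) in genes without one. A gene held a median of 2 members, 2215 genes held exactly 1 and 609 held 10 or more. KIF1A, the axonal kinesin that carries synaptic vesicle precursors, held the most, with 57 members over 40.0 kb, or 37.2% of its span, beside 7 KO-list peaks. It was followed by the chromatin scaffold TRRAP with 50, the transcription coregulator ZMIZ1 with 47, the ubiquitin ligase UBR4 with 46 and the lipoprotein receptor LRP1 with 45. Per protein-coding gene, chromosomes 22 (2.64 members) and 19 (1.94) were richest and X (0.417) was poorest. Among the zinc-finger genes named ZNF with a number, 308 of 517 (59.6%) carried a member. Of lncRNA genes, 683 of 18177 (3.76%) did.

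Genes at work in every cell were widely covered. A member lay in 12 of 15 ribosomal protein genes, 16 of 18 splicing factor genes, 9 of 11 proteasome genes and 10 of 12 respiratory chain genes of the lists used. Of these genes with a member, 10, 16, 6 and 7, in the same order, also held a KO-list H3K36me3 peak. So did 3122 of the 6675 protein-coding genes with a member. Over all protein-coding genes, 33.4% carried a member. Of the neuronal structure genes 7 of 14 did, among them MAP2, MAPT and TUBB3. Of the synapse genes 6 of 16 did, near the share over all protein-coding genes, among them STX1A and BSN. Of the neural progenitor genes 7 of 12 did, among them SOX2, PAX6 and NOTCH1. By contrast, 0 of 12 mesenchymal, 0 of 6 endothelial and 0 of 7 epithelial marker genes carried a member, and 1 of 6 astrocyte genes (GJA1) did. In WT the summed RNA of the endothelial list was 6.60 to 7.34 CPM, with PECAM1, CDH5 and VWF under 1 CPM in every library, and that of the epithelial list 20.8 to 88.3 CPM. The mesenchymal list, whose sum reached 1650 CPM in 1 WT library, held none either.

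Genes of the H3K36me3 pathway themselves held members. Of the 8 genes on the H3K36 methyltransferase list used, 7 carried a member, with 46 members in all. The data do not show which of the listed enzymes act on H3K36. Over all protein-coding genes, 33.4% carried a member. NSD2, a dimethylase, held 22 members over 9.45 kb, ASH1L 8, NSD1 and NSD3 5 each, SETD3 4, and SETD2 and SETMAR 1 each. The demethylases KDM4B (31), KDM4A (23), KDM2B (20) and KDM2A (10) accounted for all 84 members in that list, and KDM4C, KDM4D, KDM8 and RIOX1 held none. Readers were covered in 11 of 14, with BRD1 (22 members), a subunit of HBO1 acetyltransferase complexes, and the DNA methyltransferase DNMT3A (21) foremost. Elongation factors were covered in 15 of 18, led by the histone chaperone SUPT6H (17). In the UTX and COMPASS list KMT2B held 16 members, KMT2D 13, KMT2A 12 and KMT2C 8. All 8 PRC2 genes carried a member, from 15 in JARID2 to 1 in EED and AEBP2. Across these 6 lists only SETMAR, SETD3 and EED had members and no KO-list peak.

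The longest member, 4070 bp at chr19:1465205-1469274, lay at 82.8% of the span of APC2, a neuronal relative of the Wnt regulator APC. The next was 4020 bp in the casein kinase gene CSNK1E, whose read-through partner TPTEP2-CSNK1E shares it, and then 3467 bp in DAB2IP, a RasGAP. Others lay in PTMS and LAG3 (3466 bp), in the microRNA processor DGCR8 (2937 bp), in TRMT2A, ZC3H18 and the laminin gene LAMA5, in LHX2 (2650 bp) and in RAB11FIP3 (2540 bp). The highest fold enrichments were in DPYSL5 (10.3), a regulator of neurite growth, and MIR9-3HG (10.2). They were followed by PPP1CA (9.51), MTSS2 and CIC (9.25 each), VPS26C (9.20), KDM2A (8.98), and KDM4A, ZNF221 and MYH9 (8.94 each).

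Counted by bases, the genes most covered among those without a KO-list peak were TBL1X (24 members, 13.3 kb), a subunit of the NCoR corepressor, and PDE9A (24 members, 12.5 kb), a cGMP phosphodiesterase. ADGRL1 (20 members, 12.3 kb, 21.0% of its span) encodes the synaptic adhesion receptor latrophilin, and its antisense gene ADGRL1-AS1 shares many of these peaks. LRP5, ZC3H7B, GPC1, NOL4L, BCR and ADD2 followed with 11.3 to 9.05 kb. In TBL1X the RNA was 99.5, 97.0 and 151 CPM for WT, 68.9, 86.7 and 74.5 for KO1 and 38.9 and 79.0 for KO2, with all KO libraries below all WT ones (edgeR log2 fold change −0.73 ± 0.26 SE, FDR 0.248). PDE9A had 43.1, 37.9 and 36.9 CPM for WT, 28.7, 15.2 and 34.4 for KO1 and 18.5 and 17.7 for KO2, again without overlap (−0.78 ± 0.27, FDR 0.247). Without the high-collagen libraries the DESeq2 log2 fold change of PDE9A was −0.32, against −0.77 with all. Neither passed the edgeR test, which called 0 of all 18614 genes tested. ADGRL1 overlapped between genotypes (219 to 316 CPM for WT, 229 to 376 for KO). The neuronal cytoskeleton gene ADD2 ranged from 169 to 269 CPM for WT. It was at 23.1 CPM in KO1 replicate 2 and at 91.0 and 85.6 in KO2, while KO1 replicates 1 and 3 (196 and 224) lay inside the WT range.

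A small set of members stood where the KO list called H3K27me3. H3K27me3 marks genes silenced by Polycomb and seldom shares a stretch of chromatin with H3K36me3. WT-list H3K27me3 peaks overlapped only 18 members (0.0688%). KO-list H3K27me3 peaks overlapped 70 (0.267%), of which 54 met no WT-list H3K27me3 peak and 2 members met a WT-list one alone. Shared WT peaks met a KO-list H3K27me3 peak in 9 cases (0.227%), a similar share. The 54 members lay in 34 genes, among them 10 described here that encode transcription factors known from forebrain or neural development. LHX2 had 7 of the 54, EMX2, DMRTA2 and APC2 4 each, and OTX1, NR2E1 and B4GALNT1 3 each. SP8 and MIR9-1HG had 2 each. Others were PAX6, SOX1, POU3F3, FEZF2, the Notch ligand DLL1, and the miR-9 hosts MIR9-2HG and MIR9-3HG, so that each of the 3 miR-9 host genes was included. In 20 of the 34 genes the WT list had no H3K27me3 peak anywhere in the span. This set was formed after values had been seen, and each genotype has 1 list, so no test applies.

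In LHX2, a LIM-homeodomain factor that specifies cortex, 12 members covered 8.86 kb (41.2% of chr9:124011768-124033301), the KO list had no H3K36me3 peak, and H3K27me3 covered 10.3 kb in the KO list and 0 in the WT list. EMX2, a homeobox gene of the dorsal forebrain, held 4 members over 2.95 kb and 4.73 kb of KO-list H3K27me3. DMRTA2 held 4 members over 2.53 kb, and KO-list H3K27me3 spanned the whole 5.89 kb gene. OTX1 held 3 members over 2.59 kb and 6.34 kb of KO-list H3K27me3. None of these 4 genes had a WT-list H3K27me3 peak or a KO-list H3K36me3 peak. SP8 differed in having 1 WT-list H3K27me3 peak of 0.290 kb, beside 3.97 kb in the KO list. EMX2 overlaps its antisense gene EMX2OS, and their peaks cannot be assigned to one of them.

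**Figure D3:**
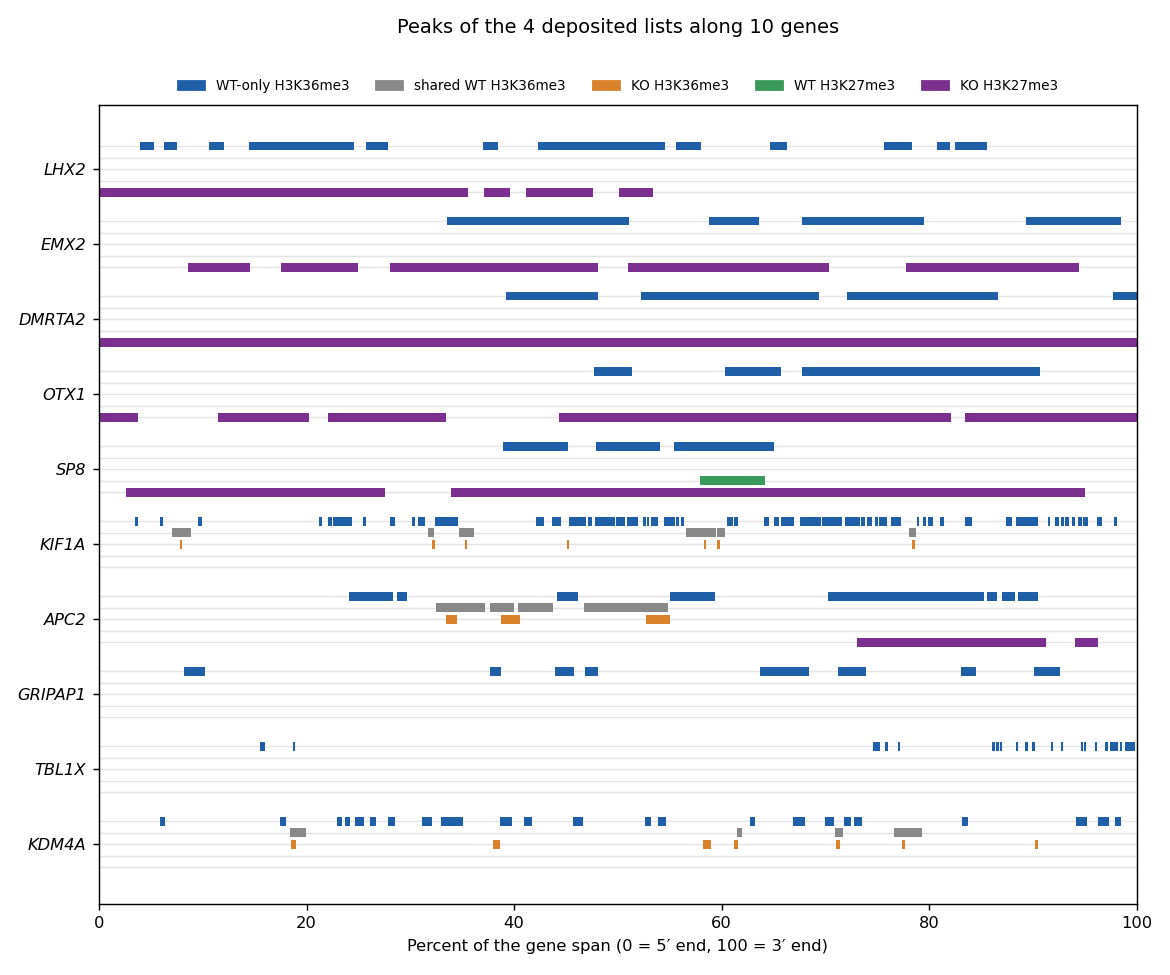
Peaks of the 4 deposited lists along 10 genes, each drawn from its 5′ end (0%) to its 3′ end (100%): members (blue), shared WT H3K36me3 (grey), KO H3K36me3 (orange), WT H3K27me3 (green) and KO H3K27me3 (purple). LHX2, EMX2, DMRTA2 and OTX1 have members and KO-list H3K27me3 but no orange or green bars, while KIF1A, with 57 members, GRIPAP1, TBL1X and KDM4A have no H3K27me3 bar.

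RNA of these transcription factor genes varied widely between KO libraries. LHX2 was at 472, 361 and 222 CPM in WT, at 229, 8.87 and 262 in KO1 and at 10.7 and 85.4 in KO2. EMX2 was at 366, 250.02 and 171 CPM in WT, at 189, 13.6 and 272 in KO1 and at 1.79 and 85.2 in KO2. PAX6, a factor of cortical progenitors, was at 325, 327 and 424 CPM in WT, at 210, 17.7 and 287 in KO1 and at 11.6 and 122 in KO2, with every KO library below every WT one. The lowest values of all 3 genes belong to the 3 high-collagen libraries. The same held for the whole group of 10 transcription factor genes plotted by library: each was below all WT libraries in KO1 replicate 2, KO2 replicate 1 and KO2 replicate 2, in 10 of 10 cases each. For KO1 replicates 1 and 3, 4 and 3 of the 10 were below all WT libraries. Over all genes tested, 25.8% and 23.2% were below all WT libraries in KO1 replicates 1 and 3. That share was 41.4% in KO1 replicate 2, 37.1% in KO2 replicate 1 and 36.8% in KO2 replicate 2. The median level of the 10 genes was 137 to 244 CPM over the WT libraries and 150 and 164 for KO1 replicates 1 and 3. It was 7.63, 1.05 and 56.5 where collagen was high.

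None of the 10 passed the edgeR test, which called 0 of all 18614 genes tested. The edgeR FDR was 0.555 for EMX2 (log2 fold change −1.22 ± 1.16 SE), 0.410 for LHX2 (−1.56 ± 1.03) and 0.390 for PAX6 (−1.47 ± 0.92). Without the 3 high-collagen libraries, DESeq2 called the neuronal POU factor POU3F3 (adjusted p = 0.00417) lower in KO. POU3F3 was at 350, 347 and 387 CPM in the WT libraries, while KO1 replicates 1 and 3 had 254 and 243. Of the 33 genes of the H3K27me3 set with enough RNA to test, 10 had all KO libraries below all WT ones, and over all genes tested that share was 6.16%. Which KO line or lines gave the KO peak lists is unknown, so their place beside these RNA libraries cannot be told.

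**Figure D4:**
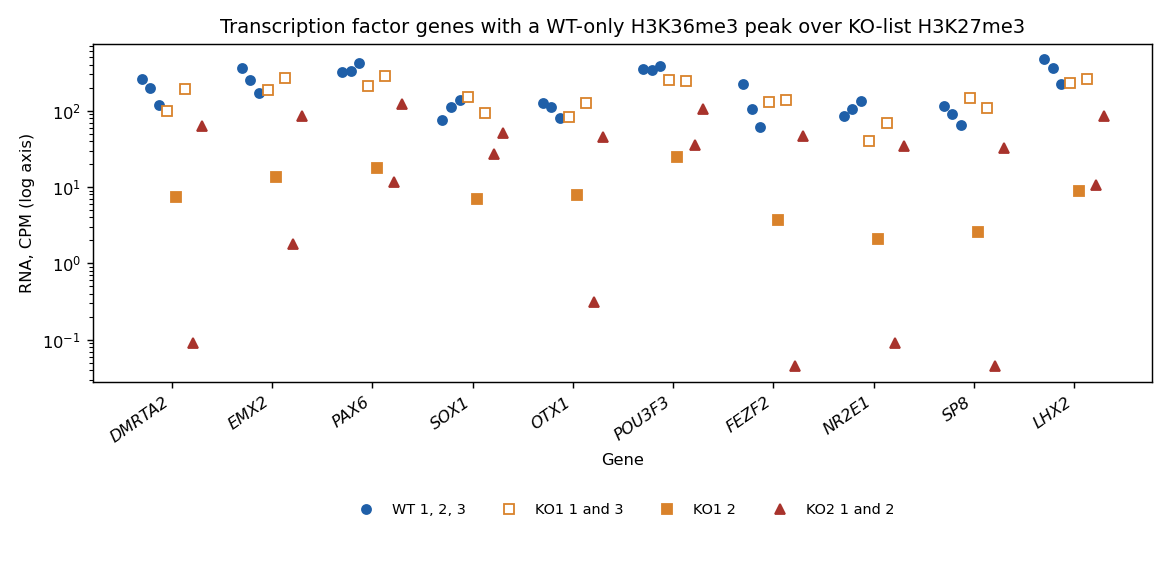
RNA level in CPM (log axis) of 10 transcription factor genes in each of the 8 libraries: WT (blue circles), KO1 replicates 1 and 3 (open orange squares), KO1 replicate 2 (filled orange square) and KO2 (red triangles). Filled squares and triangles lie below all WT circles in each gene, while open squares lie below them in 4 genes for KO1 replicate 1 and in 3 for KO1 replicate 3.

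By gene, H3K27me3 peaks were counted in each H3K36me3 class, without a test. A WT-list H3K27me3 peak lay in 16.3% and a KO-list one in 16.7% of all 19970 protein-coding genes. Of 3553 protein-coding genes with members and no KO-list H3K36me3 peak, 290 (8.16%) overlapped a WT-list and 339 (9.54%) a KO-list H3K27me3 peak. KO-list H3K27me3 without WT-list H3K27me3 was found in 100 of them (2.81%) and the reverse in 51 (1.44%), where the shares over all protein-coding genes were 2.28% and 1.96%. Of 3122 genes with members and KO-list H3K36me3 peaks, the counts were 28 and 29, and of 12689 genes with neither they were 328 (2.58%) and 303 (2.39%). Both KO lists were called against the same number of control tags, 45.7 M, so they are not independent of each other.

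Genes that carry members were expressed. Of the 4391 genes with members and no KO-list H3K36me3 peak, 3937 had a row in the RNA table and 3600 of these (91.4%) passed the low-count filter, against 29.8% of genes with neither kind of peak. Their median WT level was 39.6 CPM (quartiles 20.6 and 73.4). Per kb of gene span, introns included, it was 1.25 CPM, beside 1.88 in genes with members and KO-list peaks, 1.69 in genes with KO-list peaks alone and 0.263 in genes with neither. Medians were alike in the 8 libraries, from 35.9 CPM in KO1 replicate 2 to 40.4 in WT replicate 1. Of all CPM, 23.2 to 23.7% fell in these genes for WT, 22.6 and 23.1% for KO1 replicates 1 and 3, and 20.9 to 21.4% where collagen was high.

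Of the genes with members alone 54.3% had a lower fitted RNA level in KO, beside 50.6% of all genes tested, and no test was applied to the group. Over genes with members alone the median log2 fold change of KO against WT was −0.035, beside −0.0051 over all 18614 genes tested, −0.058 in genes with members and KO-list peaks and 0.078 in genes with neither. By edgeR's quasi-likelihood test 0 of the 3600 genes passed an FDR of 0.05, as did 0% of all genes tested. At an unadjusted p under 0.05, 306 were higher and 284 lower in KO, where the shares over all genes were 11.5% higher and 6.45% lower. In both directions together, 16.4% of these genes reached that p, against 17.9% of all genes tested. DESeq2, run as an alternative, called 141 of 3641 such genes at an adjusted p under 0.05, beside 5.99% of all genes. It called 86 higher (2.36%, against 4.83% of all genes) and 55 lower (1.51%, against 1.16%). Without the 3 high-collagen libraries it called 17 higher (0.472%, against 0.877%) and 29 lower (0.806%, against 0.55%), with 1.43% of all genes called. Of the 3600 genes, 316 (8.78%) had all 5 KO libraries below all 3 WT ones and 224 (6.22%) had all above, beside 6.16% and 6.29% of all genes. Of 571 genes with 5 or more members and no KO-list peak, DESeq2 called 2 higher (0.350%) and 15 lower (2.63%), and without the high-collagen libraries 1 higher and 5 lower of 570. Leaving out 1 library gave 1 to 25 higher and 6 to 44 lower, with the high ends without KO1 replicate 3 and the lowest count of lower genes without WT replicate 2. The DESeq2 counts over all genes with members alone also rest on single libraries. Leaving out 1 library moved the 86 to between 19 and 257, and the 55 to between 18 and 192. The low ends came without WT replicate 3 or 2 and the high ends without KO1 replicate 3. No share over all genes is given for these runs. The counts therefore do not show whether genes with members moved differently from other genes.

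Among these genes the lowest edgeR p with lower RNA was that of GRIPAP1, an endosomal recycling protein of dendrites on chromosome X with 8 members over 17.5% of its span. It was at 148, 164 and 166 CPM in WT, at 85.7, 76.5 and 96.2 in KO1 and at 90.5 and 85.7 in KO2. The groups did not overlap (log2 fold change −0.88 ± 0.11 SE, edgeR FDR 0.222). DESeq2 gave an adjusted p of 1.88e-10, and 2.35e-05 without the high-collagen libraries. PPIEL, a transcribed PPIE-related pseudogene on chromosome 1 with 5 members, was at 13.9, 15.3 and 17.3 CPM in WT, at 2.58, 5.16 and 4.05 in KO1 and at 4.39 and 5.004 in KO2 (−1.87 ± 0.24, edgeR FDR 0.222). Its parent gene PPIE could share reads with it. DYRK2, a kinase with 1 member, was at 124, 113 and 113 CPM in the WT libraries and between 58.3 and 80.4 over the KO ones (−0.80 ± 0.12, edgeR FDR 0.243). ANKRD9 (−0.58) and FAM171A2 (−0.76) completed the 5, and in all 5 genes every KO library was below every WT one. Over all genes tested, 6.16% had that separation. The 5 genes were chosen by low p in these libraries, so neither the separation nor a DESeq2 call is independent support. DESeq2 called each of the 5, and GRIPAP1, PPIEL and DYRK2 still passed without the high-collagen libraries, while ANKRD9 (adjusted p = 0.0630) and FAM171A2 (0.0865) did not. Their DESeq2 log2 fold changes were −0.57 and −0.75 with all libraries and −0.51 and −0.66 without those 3.

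With higher RNA, the protocadherin gene PCDHGC3, a neuronal adhesion molecule with 6 members, led. It was at 36.8, 34.4 and 40.2 CPM in WT, at 80.8, 142 and 74.8 in KO1 and at 156 and 95.1 in KO2 (log2 fold change 1.56 ± 0.28, edgeR FDR 0.243). It passed in DESeq2 both with all libraries (adjusted p = 8.47e-05) and without the high-collagen ones (4.01e-09). PCDHGC3 shares its 3′ exons with the other gamma protocadherins, and its reads may come in part from them. PRSS23, a secreted protease with a single 269 bp member, was at 16.3, 17.5 and 26.7 CPM in WT, at 118, 387 and 42.3 in KO1 and at 272 and 185 in KO2 (3.32 ± 0.70). Its 3 highest values are those of the high-collagen libraries. PHACTR2 (1.74), the vesicle fusion protein VAMP3 (1.16) and the GTPase effector RTKN (0.95) had 1 member each, and in all 5 genes every KO library was above every WT one. These 5 genes were chosen by low p in the same way, and 6.29% of all genes tested had that separation. Without the high-collagen libraries DESeq2 still called PCDHGC3, PHACTR2 (adjusted p = 0.0106) and PRSS23 (0.000717), and not VAMP3 (0.155) or RTKN (0.0735). The DESeq2 log2 fold change went from 3.34 to 1.99 for PRSS23, from 1.17 to 0.67 for VAMP3 and from 0.96 to 0.62 for RTKN. The DESeq2 call of VAMP3 was also lost without WT replicate 1 (adjusted p = 0.0601) or WT replicate 2 (0.0726), and that of RTKN without WT replicate 2 (0.101) or WT replicate 3 (0.0589).

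**Figure D5:**
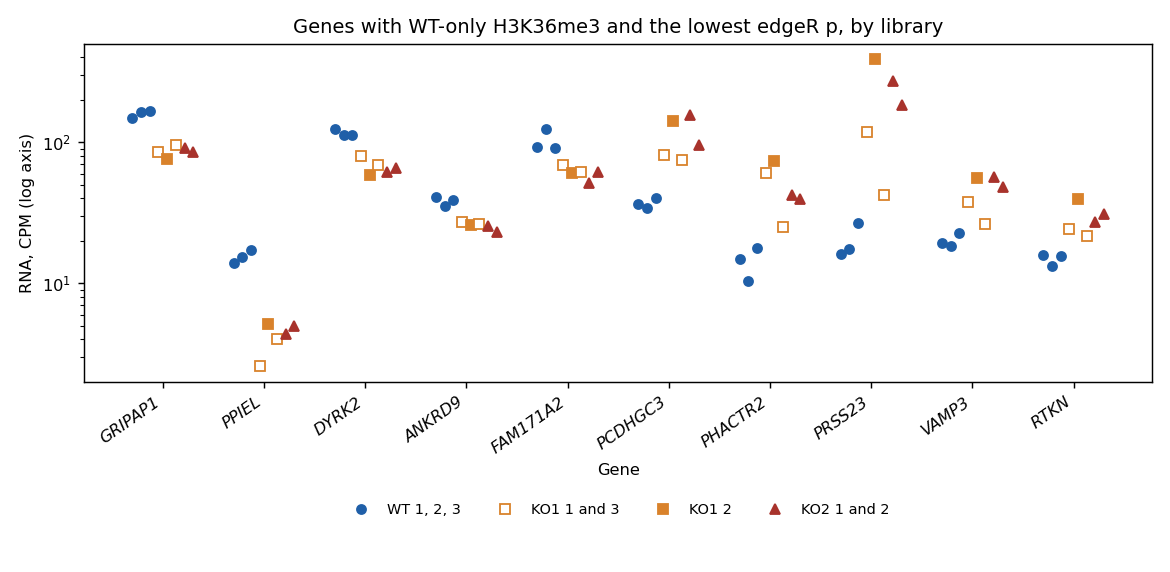
RNA level in CPM (log axis) in each of the 8 libraries for the 5 genes lower and the 5 genes higher in KO with the lowest edgeR p among genes with members and no KO-list H3K36me3 peak. In GRIPAP1 to FAM171A2 all KO points lie under the WT circles, and in PCDHGC3 to RTKN all lie over them.

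The edgeR test called 0 of all 18614 genes tested, and so none of the H3K36me3 and elongation machinery. SETD2, the trimethylase, was at 143, 145 and 132 CPM in WT, at 132, 143 and 139 in KO1 and at 132 and 129 in KO2, with overlapping groups (log2 fold change −0.05 ± 0.09 SE, edgeR FDR 0.759). Of the 8 genes on the methyltransferase list, NSD2 and NSD3 were lower at an unadjusted p under 0.05. NSD2 was at 439, 440 and 471 CPM in WT, at 368, 208 and 390 in KO1 and at 228 and 277 in KO2, all KO below all WT (−0.61 ± 0.22, edgeR FDR 0.249). NSD3 was lower too, at a smaller size (−0.38 ± 0.12). Over all genes tested 6.45% were lower and 11.5% higher at that p. Without the high-collagen libraries the DESeq2 log2 fold change of NSD2 was −0.25 (adjusted p = 0.489), against −0.61 with all libraries. None of the 8 demethylase genes reached that p. Of the 14 readers, PSIP1, DNMT3B, MSH6 and PHF19 were lower at it and MORF4L1, which holds no member, higher. PHF19, a PRC2 partner that binds H3K36me3, was at 34.7, 35.3 and 36.6 CPM in the WT libraries and between 25.1 and 30.1 over the KO ones, and DESeq2 called it (adjusted p = 0.0188). Without the high-collagen libraries its DESeq2 log2 fold change was −0.42 (adjusted p = 0.148), against −0.40 with all. The call was also lost when any 1 library other than KO1 replicates 2 and 3 was left out (adjusted p from 0.0609 to 0.168). DESeq2 called MORF4L1 higher (log2 fold change 0.30, adjusted p = 0.0408), and not without the high-collagen libraries (0.22, adjusted p = 0.660). DNMT3B and MSH6 went from −1.21 and −0.56 to −0.54 and −0.25 without those libraries. Of the 18 elongation genes SUPT16H alone, and of the 8 PRC2 genes JARID2 alone, was lower at an unadjusted p under 0.05, and their DESeq2 log2 fold changes went from −0.39 and −0.59 to −0.16 and −0.20 without the high-collagen libraries. No gene of the UTX and COMPASS list reached it.

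In several hosts of long, strong or many members the high-collagen libraries stood apart from the other KO libraries. APC2 was at 325, 515 and 365 CPM in WT, at 358, 84.4 and 333 in KO1 and at 206 and 171 in KO2. DPYSL5 was at 533, 654 and 539 CPM in WT, at 518, 111 and 526 in KO1 and at 305 and 256 in KO2. KIF1A, with its 57 members, was at 844, 872 and 540 CPM in WT, at 666, 183 and 759 in KO1 and at 533 and 325 in KO2. In these 3 neuronal genes the lowest values came from the high-collagen libraries, where the summed neuronal markers were also low. MYH9, a non-muscle myosin, was higher in every KO library than in every WT one and did not separate them in this way, at 161, 119 and 145 CPM in WT, at 448, 394 and 182 in KO1 and at 1059 and 402 in KO2 (log2 fold change 1.81 ± 0.52, edgeR FDR 0.243). LRP1 was at 409 to 458 CPM over the WT libraries, at 437 and 432 for KO1 replicates 1 and 3, but at 2642, 1293 and 1755 where collagen was high. MIR9-2HG, the host of the miR-9 hairpin shown, was at 669, 494 and 503 CPM in WT, at 242, 31.6 and 379 in KO1 and at 88.7 and 146 in KO2, with all KO below all WT (−1.65 ± 0.65, edgeR FDR 0.261).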

How the data were processed

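H3K36me3 and H3K27me3 ChIP-seq and RNA-seq of day 40 neurons were used. Per the submitters' processing notes, Bowtie2 2.4.1, MACS2 2.2.7.1, Salmon 1.1.0, DESeq2 1.26.0 and GRCh38 were used. The deposited peak lists give each peak's length in bp, pileup signal, −log10 q and fold enrichment over control, called by the authors with MACS2 at a q-value cutoff of 0.01, per the file headers. The RNA table deposited by the authors gives estimated counts for each gene symbol, rounded here to whole numbers. How transcripts were summed to genes is not stated in the sources at hand.

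Overlaps of 1 bp or more were found with bedtools 2.31.1. Genes are RefSeq spans of GRCh38.p14 (59080 genes, 37105 matched to one of 60199 RNA rows, 731 of them through an alias). Strand came from the promoter table, which covers 15812 of 19970 protein-coding genes. Neither a genome sequence nor transcript lengths were used, so the planned level per coding length was replaced by CPM per kb of gene span, and no peak sequence is shown. RNA was tested with edgeR 4.0.16 (filterByExpr, TMM, quasi-likelihood, KO lines pooled against WT, Benjamini-Hochberg over 18614 genes) and, as an alternative, DESeq2 1.42.0, in R 4.3.3, after the scripts had been tested on simulated data. CPM are TMM-scaled. Errors are approximate standard errors of the edgeR log2 fold change, derived as its absolute value divided by the square root of the F statistic. The design text calls the RNA libraries biological replicates, but separate differentiations are not stated, so part of the spread behind each p-value may be technical.

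Genes were named by rule: the 10 longest members and the 10 of highest fold enrichment, the 10 genes with most covered bases and the 5 of lowest edgeR p in each direction among genes without a KO-list peak, and genes of 6 pathway lists that carried a member. Genes with most members, the H3K27me3 set and the genes whose sequences are shown were chosen after their values were seen. Results for some genes of the H3K27me3 set and the marker lists are not reported here. The members and lists were chosen with earlier results of these data known. The other alternatives were RLE scaling, no filter, a replicate block, each KO line alone, each library left out, stricter and merged peaks, other overlap rules, and, added after seeing the data, leaving out the 3 high-collagen libraries.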

Additional observations from a re-analysis of the deposited data

How the results depend on the processing

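The number of members moved with the peak rules: it was 15935 (93.2% of the WT list) with a −log10 q of 5 or more in both lists, 6915 (77.4%) with the WT list reduced to the KO list's size by q, 8651 (96.3%) with peaks of 500 bp or longer in both lists, and 12706 (81.5%) with peaks under 2 kb apart merged. The share was 95.2% when a shared peak had to be covered over 50% of its length and 74.4% when a KO-list peak within 1 kb also counted as shared. Under these 6 rules, in the order given, the median length was 436, 492, 673, 414, 381 and 363 bp. The median fold enrichment was 5.24 under the q rule, 5.72 with the reduced list, 5.24 for long peaks and 4.75 after merging. The share in protein-coding genes was 96.8% under the q rule, 96.7% with the reduced list, 97.2% for long peaks and 95.7% by the summit. The 3′ part of the span held 55.9% of summits with the reduced list, 56.8% for long peaks and 50.1% after merging. edgeR called 0 genes under each setting run. DESeq2 called 1243 genes, 141 of them with members alone. Those were 86 higher and 55 lower, which became 26 and 34 with the reduced list. They became 17 and 29 without the high-collagen libraries, and 19 to 257 and 18 to 192 with 1 library left out. Shares over all genes with 1 library left out, and the class size with the reduced list, are not given here. The median log2 fold change of genes with members alone was −0.022 for KO1, −0.062 for KO2, −0.021 with RLE scaling, −0.053 for long peaks, −0.018 without the high-collagen libraries, and −0.049 to −0.018 with 1 library left out. Their median WT level was 37.7 CPM over all genes with any count. The 10 genes of lowest p kept their direction in every edgeR setting run. DESeq2 called each with all libraries, but not VAMP3 or RTKN with some single WT libraries left out. These 10 genes were chosen by p from the same libraries, so neither result is independent support for them. Replicate numbers do not pair the samples, since same-numbered libraries did not deviate together (correlations from −0.32 to 0.27). With the replicate number as a block, edgeR called 0 genes, and 446 genes with members alone had an unadjusted p under 0.05, against 590 without the block. Those 590 were 16.4% of such genes, against 17.9% of all genes tested. The share over all genes with the block is not given here. Each genotype has 1 ChIP list per mark, and the KO lists may hold 1 line or both, so depth and spread between cultures limit every statement on peaks.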
